A study of Mus musculus with 15 samples.

Results

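The effect of continuous theta burst stimulation (cTBS) on the mouse cortex was examined by comparing the 5 libraries of stimulated animals with the 5 libraries of sham-treated animals, out of 15 libraries in all. Every animal was a wild-type mouse of the C57BL/6J strain. It was given a single session of cTBS or sham stimulation, and its cortex was collected 3 hours later. The sample titles name the tissue as somatosensory and the series design as sensorimotor, so it is called cortex here. Age, stimulation intensity and the form of the sham were not given in the sources used here. Each library is taken as 1 animal because the design gives 5 animals per group. The libraries are called cTBS 1 to 5 and sham 1 to 5 after the replicate numbers in their titles. All genes that passed an expression filter were compared, 21876 of the 43566 genes with any count in these 10 libraries.

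Repetitive transcranial magnetic stimulation induces currents in the cortex with magnetic pulses delivered through the skull. Theta burst protocols group the pulses into short high-frequency bursts that repeat at the theta rhythm. In cTBS the bursts follow each other without pause, and in the human motor cortex this protocol is best known for lowering excitability for some time after the session. Strong neuronal firing is known to induce immediate early genes within minutes and slower effector genes over the following hours. The interval studied here therefore falls after the usual peak of the first wave.

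The RNA came from whole tissue. Ribosomal RNA was removed and the remaining total RNA was made into stranded libraries, which hold unspliced and nuclear RNA as well as mature messages. Total counts ran from 35545632 to 43770223 in the cTBS libraries and from 18484169 to 47807723 in the sham libraries. The difference in total counts did not pass an exact two-sided permutation test (p = 0.0794, adjusted p = 0.317 over 4 library measures, smallest possible p = 0.00794). The number of genes detected, the share of mitochondrially encoded counts and the share of the 10 most abundant genes did not pass it either (exact permutation p = 0.349, 0.794 and 0.619). Markers of upper-layer, layer 5 and layer 6 excitatory neurons were detected in every library. The Y-linked genes Ddx3y, Uty, Kdm5d and Eif2s3y together stood at 127 to 151 CPM in the cTBS libraries and at 130.4 to 171 CPM in the sham libraries, where CPM is a gene's count scaled to equal library size. Because the RNA is from bulk tissue, fewer cells of a type and less RNA per cell cannot be told apart in any result below.

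The libraries differed most along one axis, and 1 sham library lay on the far side of it. Of the variance, 64.9% lay on the first principal component and 8.63% on the second. Sham 1, 2, 3 and 5 had first-component scores between 35.9 and 73.005, and cTBS 1 to 4 had scores between -90.1 and -21.1. Sham 4 scored -58.0, among the cTBS libraries, and cTBS 5 scored 20.03, between the other cTBS libraries and the other sham libraries. In the level of RNAs that remain in the nucleus, sham 4 again lay among the cTBS libraries. The mean log2 CPM of 12 nuclear-retained noncoding RNAs, called the nuclear RNA level here, was 6.14, 6.82, 6.67, 5.81 and 6.99 in cTBS 1 to 5 and 7.60, 7.35, 7.75, 6.22 and 7.15 in sham 1 to 5. Sham 4 was thus below 3 of the 5 cTBS libraries in this measure. Results are therefore given with all 10 libraries, without sham 4 and, where stated, adjusted for nuclear RNA. Adjusted means that the nuclear RNA level was entered as a covariate in the model. This level was measured after stimulation and differed between the groups, with means of 6.49 in cTBS and 7.21 in sham libraries. Group and nuclear RNA level can thus not be fully told apart, and adjusted values are a description rather than a corrected effect. Sham 4 was singled out in these same data for lying among the cTBS libraries. Leaving it out therefore widens the group difference along this axis, and values without it are a description and no independent test.

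**Figure D1:**
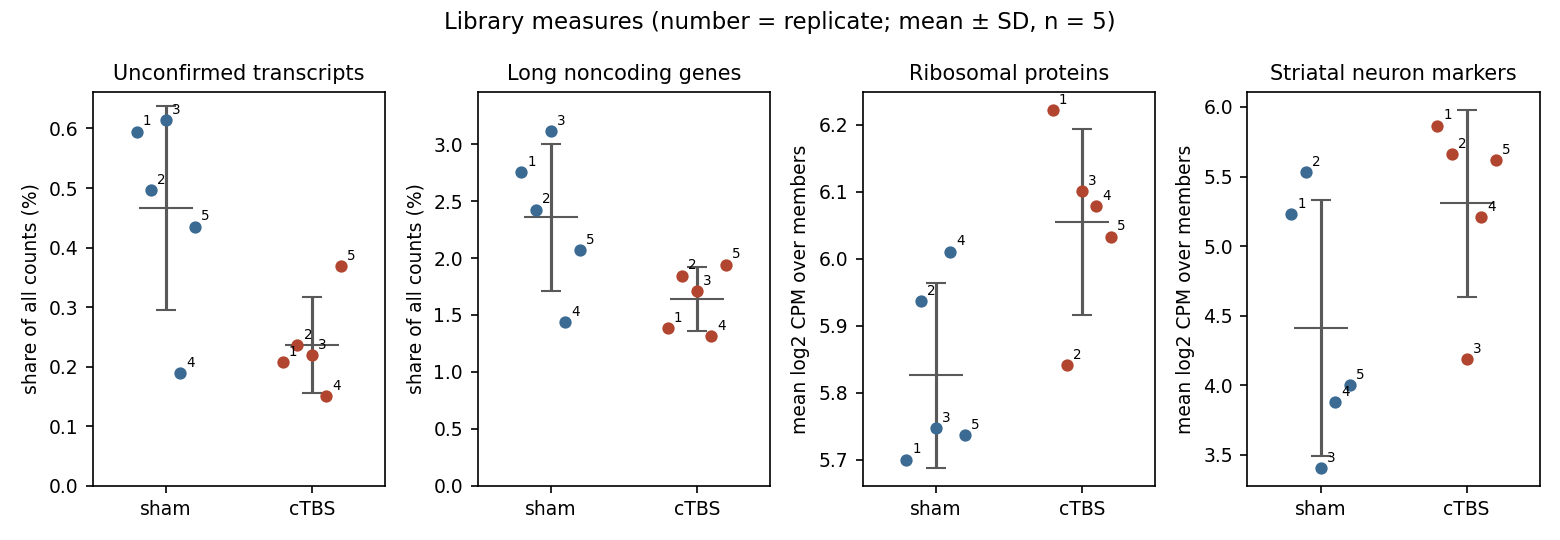
Share of all counts from unconfirmed transcripts and from long noncoding genes (%), and mean log2 CPM of the cytosolic ribosomal protein and striatal neuron lists, in each library; points are libraries with their replicate number, lines and bars are mean ± SD (n = 5). In both left panels sham 4 sits among the cTBS libraries, and in the right panel sham 3, 4 and 5 and cTBS 3 are low.

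Individual genes differed modestly, and no gene passed the 5% false discovery rate with all 10 libraries. In edgeR's quasi-likelihood test 0 of 21876 genes were called (0.0%), with a smallest adjusted p of 0.125, while 4987 genes (22.8%) had an unadjusted p under 0.05. Of these, 1877 (8.58% of tested genes) were higher and 3110 (14.2%) lower after cTBS. The median log2 fold change of all tested genes was 0.015, and 52.3% were above 0. The call depended on sham 4 and on the tool. Without sham 4, edgeR called 5378 of 22460 genes (23.9%), with 1838 higher (8.18%) and 3540 lower (15.8%). With all 10 libraries DESeq2 called 384 genes, 28 higher and 356 lower, and limma-voom with sample quality weights, which gave sham 4 a weight of 0.223, called 6240. Limma-trend on the deposited variance-stabilized values called 0. Of the genes named in this text, 28 passed in DESeq2 and 86 did not, and DESeq2 adjusted p-values are printed only where they passed. In 290 genes (1.33%) the values of both groups did not overlap at all, with 180 higher (0.823%) and 110 lower (0.503%) after cTBS.

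The most clearly separated gene among those higher after cTBS was Pcdh20, a non-clustered protocadherin of the cadherin adhesion family. Pcdh20 was at 34.7, 30.8, 34.9, 31.8 and 35.6 CPM in cTBS 1 to 5 and at 24.02, 25.4, 23.6, 26.3 and 25.4 CPM in sham 1 to 5. Every cTBS library was above every sham library, and sham 4 lay with the other sham libraries. The log2 fold change was 0.43 ± 0.061 (SE), with an adjusted p of 0.125 in edgeR and of 0.000103 in DESeq2. It was 0.45 without sham 4 (edgeR adjusted p = 0.0113) and 0.40 after adjustment for nuclear RNA. Hunk, a protein kinase related to AMP-activated kinase, followed. Hunk was at 32.2, 33.1, 39.3, 37.2 and 35.1 CPM in cTBS 1 to 5 and at 25.6, 26.3, 28.1, 27.2 and 26.7 CPM in sham 1 to 5. Both groups were again fully apart, with a log2 fold change of 0.40 ± 0.065 and an edgeR adjusted p of 0.18, against 0.00159 in DESeq2.

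Htr1a, which encodes the inhibitory serotonin 1A receptor, showed the next smallest p among the higher genes. Htr1a was at 17.99, 19.7, 17.9, 17.6 and 14.7 CPM in cTBS 1 to 5 and at 10.8, 11.4, 11.3, 14.5 and 12.8 CPM in sham 1 to 5. The lowest cTBS library, cTBS 5, stood just above the highest sham library, sham 4, and the log2 fold change was 0.53 ± 0.100 (edgeR adjusted p = 0.18). Kcnj4, an inwardly rectifying potassium channel of forebrain neurons, was at 153, 153, 145, 142 and 138 CPM in cTBS 1 to 5 and at 110.3, 113, 100.1, 131 and 122 CPM in sham 1 to 5. Sham 4 was the highest sham library, still below all cTBS libraries, and the log2 fold change was 0.34 ± 0.075. The 10 higher genes with the smallest p also included Clpp (0.35 ± 0.072), the proteolytic subunit of a mitochondrial matrix protease, Fbll1 (0.38 ± 0.082), a relative of the nucleolar protein fibrillarin, Btg1 (0.28 ± 0.065), an antiproliferative factor, Efnb3 (0.39 ± 0.093), the guidance ligand ephrin-B3, Use1 (0.25 ± 0.059), a SNARE protein of retrograde transport to the endoplasmic reticulum, and Gmpr (0.30 ± 0.073), a guanosine monophosphate reductase. Of these 10 genes, 9 did not overlap between groups, and in Gmpr the lowest cTBS library (26.05 CPM) was below sham 4 (26.4 CPM). They were picked by their p in the same libraries, which favours groups without overlap, so this count adds no support. Over all tested genes, 0.823% were higher without overlap.

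Among genes lower after cTBS, Osbpl3, an oxysterol-binding protein at membrane contact sites, had the smallest p of all genes. Osbpl3 was at 38.4, 43.5, 42.8, 43.5 and 45.5 CPM in cTBS 1 to 5 and at 54.7, 56.6, 60.2, 55.7 and 60.2 CPM in sham 1 to 5. The highest cTBS library was below the lowest sham library, and sham 4 lay inside the range of the other sham libraries. The log2 fold change was -0.43 ± 0.060 with an adjusted p of 0.125 in edgeR and 4.61e-05 in DESeq2, and it was -0.39 after adjustment for nuclear RNA. Abcc4, an export pump for cyclic nucleotides and other organic anions, was at 12.4, 11.5, 11.4, 11.5 and 12.96 CPM in cTBS 1 to 5 and at 15.6, 15.4, 17.2, 15.2 and 16.4 CPM in sham 1 to 5. Xdh, the purine-degrading enzyme xanthine dehydrogenase, was at 4.47, 5.19, 4.27, 4.57 and 5.73 CPM in cTBS 1 to 5 and at 8.07, 6.70, 8.86, 6.93 and 8.11 CPM in sham 1 to 5. Neither gene overlapped between groups, and their log2 fold changes were -0.42 ± 0.068 and -0.67 ± 0.12 (edgeR adjusted p = 0.18 for both).

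Igsf9b, an adhesion protein of inhibitory synapses, was also lower. It stood at 137, 146, 162, 162 and 205 CPM in cTBS 1 to 5 and at 239.8, 208, 240.0, 223 and 273 CPM in sham 1 to 5. The highest cTBS value, in cTBS 5, was just under the lowest sham value, in sham 2, and the log2 fold change was -0.54 ± 0.11. Schip1 (-0.48 ± 0.11), a cytoskeletal partner of schwannomin, Banp (-0.41 ± 0.098), a DNA-binding nuclear matrix protein, and Cfap69 (-0.40 ± 0.096), a cilium- and flagellum-associated protein, did not overlap either. Xirp2 (-1.46 ± 0.34), an actin-binding protein of muscle, Vmn2r86 (-1.35 ± 0.31), a vomeronasal receptor of a large family with similar sequences, and St7 (-0.38 ± 0.089) overlapped, in each case through sham 4. Without sham 4, all 20 genes named by their p had an edgeR adjusted p between 0.0113 and 0.0231. They were picked by their p in the same libraries, so neither these values nor the lack of overlap adds support. Over all tested genes, 0.503% were lower without overlap. After adjustment for nuclear RNA, Vmn2r86 and Xirp2 moved from -1.35 and -1.46 to -0.63 and -0.56.

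**Figure D2:**
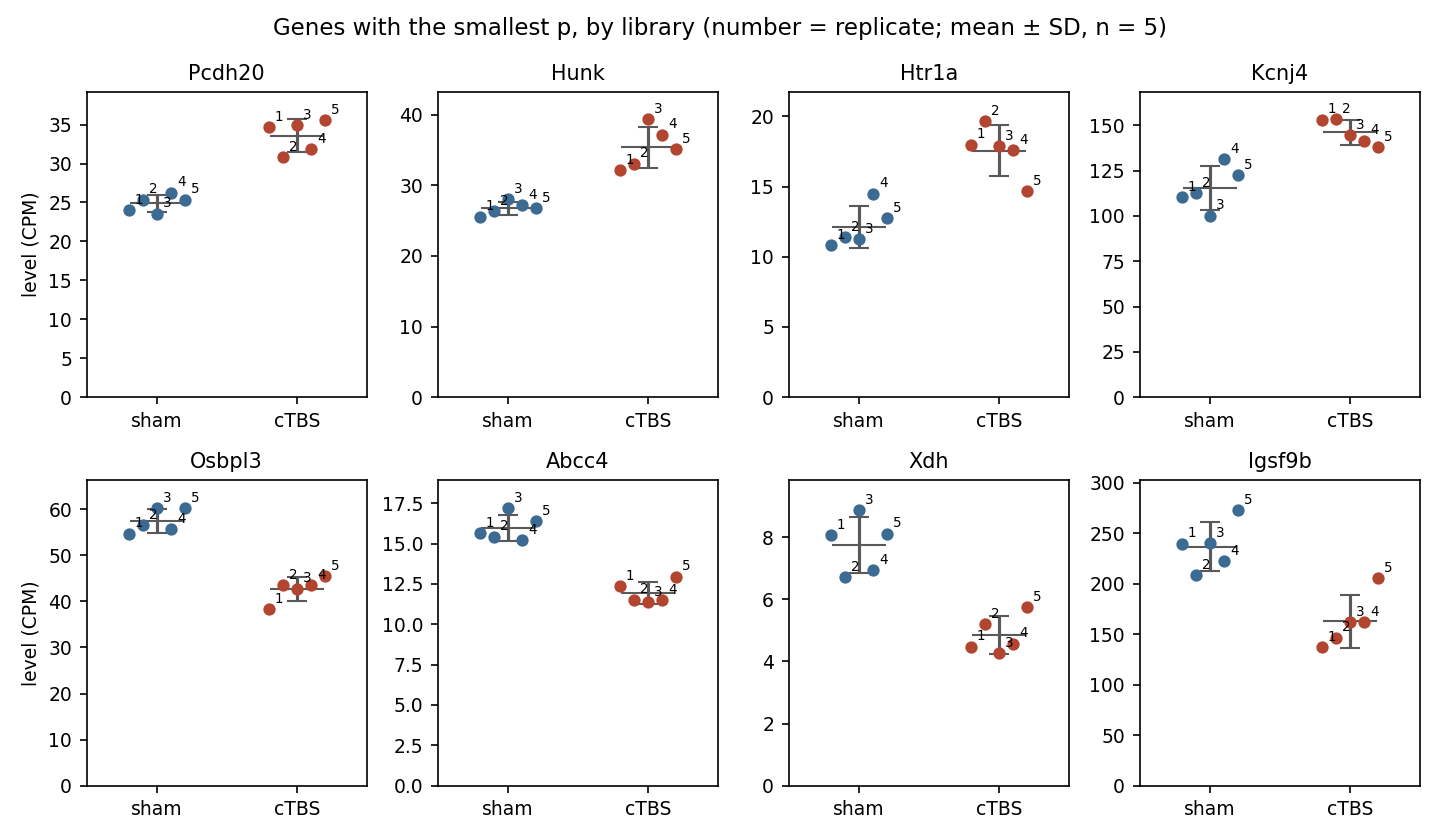
Levels (CPM, linear axis from 0) of 4 of the higher and 4 of the lower genes with the smallest p, by library; points are libraries with their replicate number, lines and bars are mean ± SD (n = 5). In all 8 panels the cTBS and sham points do not overlap, and cTBS 5 is the cTBS library nearest to the sham group in Htr1a, Kcnj4, Osbpl3, Abcc4, Xdh and Igsf9b.

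By class of transcript, the genes lower after cTBS were mainly noncoding and the genes higher after cTBS mainly protein-coding. Among 1598 unconfirmed transcripts, single-exon or otherwise unverified models in the annotation, 1010 (63.2%) had an unadjusted p under 0.05 and were lower, 3 were higher, and the median log2 fold change was -1.14. Among 2489 long noncoding genes 758 (30.5%) were lower and 24 higher, with a median of -0.46. Among 15084 protein-coding genes 1758 (11.7%) were higher and 891 (5.91%) lower, with a median of 0.060. Against these, 8.58% of all tested genes were higher and 14.2% lower. Unconfirmed transcripts held 0.151% to 0.369% of all counts in the cTBS libraries and 0.435% to 0.614% in sham 1, 2, 3 and 5, while sham 4 was at 0.189%. Long noncoding genes held 1.32% to 1.94% in cTBS libraries, 2.07% to 3.11% in the same 4 sham libraries and 1.44% in sham 4. Without sham 4 the medians of both noncoding classes were -1.39 and -0.60. Adjusted for nuclear RNA, they were -0.11 and -0.0011. The nuclear RNA level is itself a mean over noncoding RNAs, so this shift towards 0 is no independent result. The strand setting of the counting is not given in the sources used here, so reads of these classes cannot be told apart from those of genes they overlap.

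Among protein-coding genes, the share that was higher went down with the span of the gene from start to end. Of 3618 genes spanning under 10 kb, 644 (17.8%) were higher and 144 (3.98%) lower at an unadjusted p under 0.05. Of 4788 genes spanning 10 to 30 kb, 13.2% were higher and 5.16% lower. The shares were 8.27% and 7.88% in 4351 genes of 30 to 100 kb. In 1788 genes of 100 to 300 kb they were 5.70% and 6.82%, and in 539 genes over 300 kb 3.90% and 6.49%. Among genes at this threshold, short genes were thus more often higher than lower, and the longest genes more often lower than higher. Without the threshold most genes of the longest classes were above 0. These were 1017 of 1788 genes of 100 to 300 kb and 324 of 539 genes over 300 kb. This is a description with no test of the trend. Median log2 fold changes ran from 0.11 for the shortest to 0.033 for the longest genes.

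**Figure D3:**
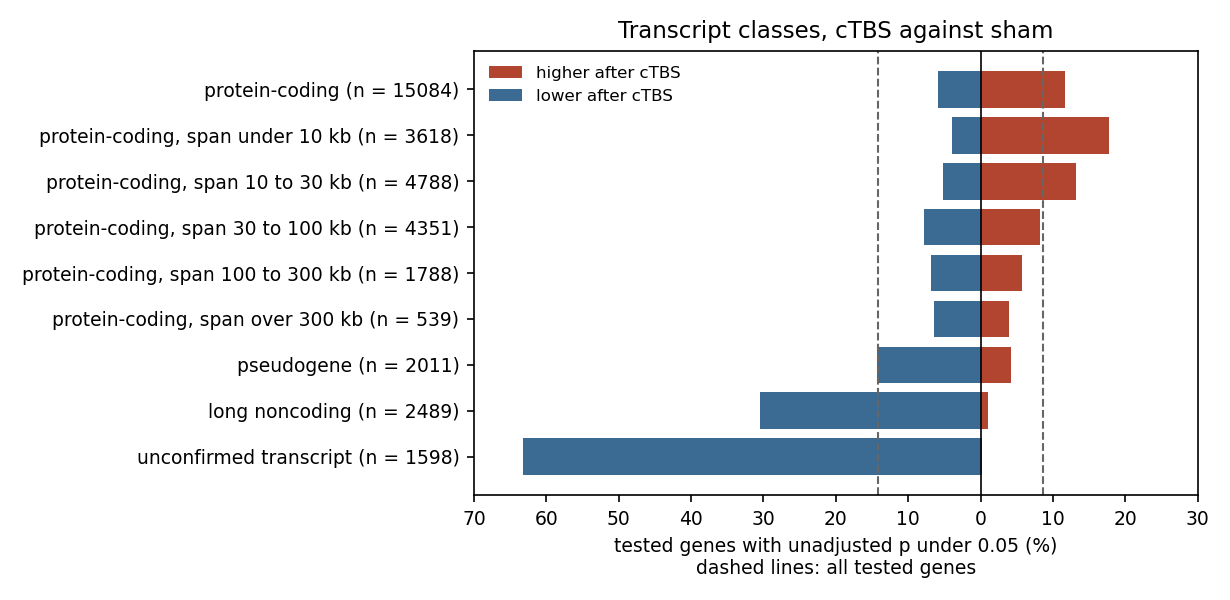
Percent of tested genes with an unadjusted p under 0.05 that were higher (right) or lower (left) after cTBS, by transcript class and, for protein-coding genes, by gene span; dashed lines mark the 8.58% and 14.2% of all tested genes. Unconfirmed transcripts extend to 63.2% on the lower side, and protein-coding genes under 10 kb reach 17.8% on the higher side.

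Within the list of 12 nuclear-retained noncoding RNAs, 11 were below sham on average and 10 had an unadjusted p under 0.05, all lower, with a median log2 fold change of -0.84. Kcnq1ot1, an imprinted antisense RNA that silences neighbouring genes in cis, was at 57.8, 60.7, 51.5, 26.8 and 118 CPM in cTBS 1 to 5 and at 210.2, 174, 238, 46.5 and 154 CPM in sham 1 to 5. Sham 4 was below 4 of the 5 cTBS libraries, and the other sham libraries were above all of them. The log2 fold change was -1.38 ± 0.41 with all libraries, -1.62 without sham 4 (edgeR adjusted p = 0.0113) and -0.25 after adjustment for nuclear RNA (which this gene helps to set). Malat1 (-1.14 ± 0.43), an abundant RNA of nuclear speckles, Meg3 (-1.05 ± 0.43), an imprinted neuronal RNA, and Snhg14 (-0.65 ± 0.24), the host transcript of small nucleolar RNAs that runs antisense to Ube3a, were also lower. After adjustment for nuclear RNA, which they help to set, the direction turned for Malat1 (0.094) and Meg3 (0.090), and Snhg14 was at -0.041. Of 42 splicing factors, 10 (23.8%, against 14.2% of all tested genes) were lower and 0 higher, among them Rbm25 (-0.40 ± 0.13) and Srsf11 (-0.40 ± 0.15), both regulators of splice site choice. Rbm25 was at 64.2, 76.4, 64.8, 66.1 and 85.6 CPM in cTBS 1 to 5 and at 113, 96.4, 106, 66.7 and 89.3 CPM in sham 1 to 5. Sham 4 again stood with the cTBS group, and the log2 fold change of Rbm25 adjusted for nuclear RNA was -0.093. With that adjustment the median of the splicing list went from -0.077 to 0.009, and 1 member was lower at an unadjusted p under 0.05 (2.15% of all tested genes). Of 34 chromatin regulators 3 (8.82%, a smaller share than the 14.2% of all tested genes) were lower, Tet2 (-0.45 ± 0.13), which oxidizes methylated cytosine, Chd2 and Kmt2c.

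Immediate early genes showed a mixed picture, with 4 genes higher and the others spread around 0. Of 26 listed genes, 13 had a log2 fold change above 0 and 13 below, and 4 (15.4%, against 8.58% of all tested genes) were higher at an unadjusted p under 0.05: Fos, Btg2, Npas4 and Jun. None was lower. The list median was 0.028 with all libraries, 0.13 without sham 4 and -0.12 after adjustment for nuclear RNA, where 2 genes were higher (Btg2 and Npas4) and 1, Homer1, lower at an unadjusted p under 0.05. The promoters of Fos, Btg2 and Npas4 are shown because induction of such genes is classically tied to the cyclic AMP response element, which binds the factor CREB. The 250 bases before the start site are given 5′ to 3′ from RefSeq on build GRCm38.p6, in the direction of the gene. Capitals mark the core TGACGT on either strand, extended where the full palindrome TGACGTCA was found, which holds the core on both strands.
Fos, chr12:85473640-85473889, plus strand: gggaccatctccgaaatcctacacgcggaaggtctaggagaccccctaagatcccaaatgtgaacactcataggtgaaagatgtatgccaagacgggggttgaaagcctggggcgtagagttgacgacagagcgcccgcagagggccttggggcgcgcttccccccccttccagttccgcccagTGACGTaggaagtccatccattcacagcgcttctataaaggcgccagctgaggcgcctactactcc
Btg2, chr1:134079156-134079405, minus strand: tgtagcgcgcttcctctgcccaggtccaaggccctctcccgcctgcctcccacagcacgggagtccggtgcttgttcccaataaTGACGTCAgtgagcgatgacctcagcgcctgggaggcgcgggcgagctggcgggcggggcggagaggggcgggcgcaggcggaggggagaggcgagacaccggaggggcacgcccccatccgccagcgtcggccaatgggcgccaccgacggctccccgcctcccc
Npas4, chr19:4989972-4990221, minus strand: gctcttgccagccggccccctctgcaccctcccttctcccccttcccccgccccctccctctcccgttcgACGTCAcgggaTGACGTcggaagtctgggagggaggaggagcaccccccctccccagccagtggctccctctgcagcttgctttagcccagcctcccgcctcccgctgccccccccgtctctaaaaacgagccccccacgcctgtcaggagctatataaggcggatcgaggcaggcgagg

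The Fos window holds 1 core, 66 to 61 bases before the start site. Btg2 holds a full palindrome 166 to 159 bases before it, and Npas4 holds 2 cores, at 180 to 175 and 169 to 164 bases. The window of Jun, which is not shown, holds no core. Of the 26 immediate early genes, 22 had 1 or more windows in the RefSeq table, 29 in all, and 11 of these genes held the core in at least 1 window. Over all 32851 windows of the same length, 6.47% held the core and 1.55% the full palindrome. These are matches of letters and no measurement of binding.

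Fos, a subunit of the AP-1 transcription factor, was at 40.9, 46.01, 60.2, 61.1 and 44.9 CPM in cTBS 1 to 5 and at 38.6, 30.3, 34.5, 46.3 and 34.98 CPM in sham 1 to 5. Sham 4 (46.3 CPM) was above cTBS 1, 2 and 5, so the groups overlapped, and the log2 fold change was 0.45 ± 0.13 (edgeR adjusted p = 0.18, unadjusted p = 0.00536). It was 0.29 after adjustment for nuclear RNA. Without sham 4 it was 0.56 (edgeR adjusted p = 0.0144). Btg2, an antiproliferative gene induced by firing and growth factors, was at 30.3, 23.5, 35.98, 20.9 and 18.8 CPM in cTBS 1 to 5 and at 24.3, 13.5, 16.5, 15.1 and 13.3 CPM in sham 1 to 5. Here cTBS 1 and 3 were high, and sham 1 was the single sham library inside the cTBS range, with a log2 fold change of 0.65 ± 0.20 (edgeR adjusted p = 0.18, and 0.0489 without sham 4). Npas4, a factor induced by calcium entry that shapes inhibitory synapses, was at 31.5, 28.6, 44.7, 35.5 and 28.8 CPM in cTBS 1 to 5 and at 28.99, 20.8, 29.2, 27.3 and 22.8 CPM in sham 1 to 5. Sham 1 and 3 reached into the lower end of the cTBS range, and the log2 fold change was 0.39 ± 0.13 (edgeR adjusted p = 0.18).

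Arc, Egr1 and Nr4a1, which are also in common use as activity markers, did not separate the groups. Arc, which regulates AMPA receptor trafficking, was at 249, 342, 470.0, 558 and 468 CPM in cTBS 1 to 5 and at 349, 348, 497, 604 and 425 CPM in sham 1 to 5. The range of one group almost covered that of the other, with a log2 fold change of -0.091 ± 0.21. Egr1, a zinc finger transcription factor, gave -0.12 ± 0.20, and Nr4a1, an orphan nuclear receptor, 0.22 ± 0.18. In cTBS 1 these 3 genes were each at the lowest level of all 10 libraries. Homer1, whose short form is induced by firing and uncouples metabotropic receptors, was at 419.8 ± 54.3 CPM after cTBS against 489 ± 70.8 CPM after sham (mean ± SD, n = 5 per group, as for all such pairs below) with a log2 fold change of -0.22 ± 0.11, and its short and long forms are not separated by gene counts.

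Later effectors were close to sham. Of 22 late response genes 10 were above 0 and 1, Rgs2, was higher at an unadjusted p under 0.05, with a median of -0.015 (-0.13 adjusted for nuclear RNA). Rgs2, an inhibitor of G protein signalling, was at 49.5 ± 5.29 CPM after cTBS against 41.6 ± 5.91 CPM after sham (0.25 ± 0.11), and its relative Rgs4 at 527 ± 53.00 CPM after cTBS against 462 ± 56.5 CPM after sham (0.19 ± 0.099). Bdnf, the neurotrophin most closely tied to plasticity, was at 26.2, 31.7, 28.6, 38.2 and 32.9 CPM in cTBS 1 to 5 and at 28.4, 25.7, 28.6, 41.3 and 37.1 CPM in sham 1 to 5. Both groups covered the same range, with a log2 fold change of -0.034 ± 0.14. Of 18 phosphatases and inhibitors that feed back on MAP kinase, 1 was higher (Dusp16) and 1 lower (Spred3). Of 14 tested neurotrophins and receptors 2 were higher, Ngfr and Gfra1.

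**Figure D4:**
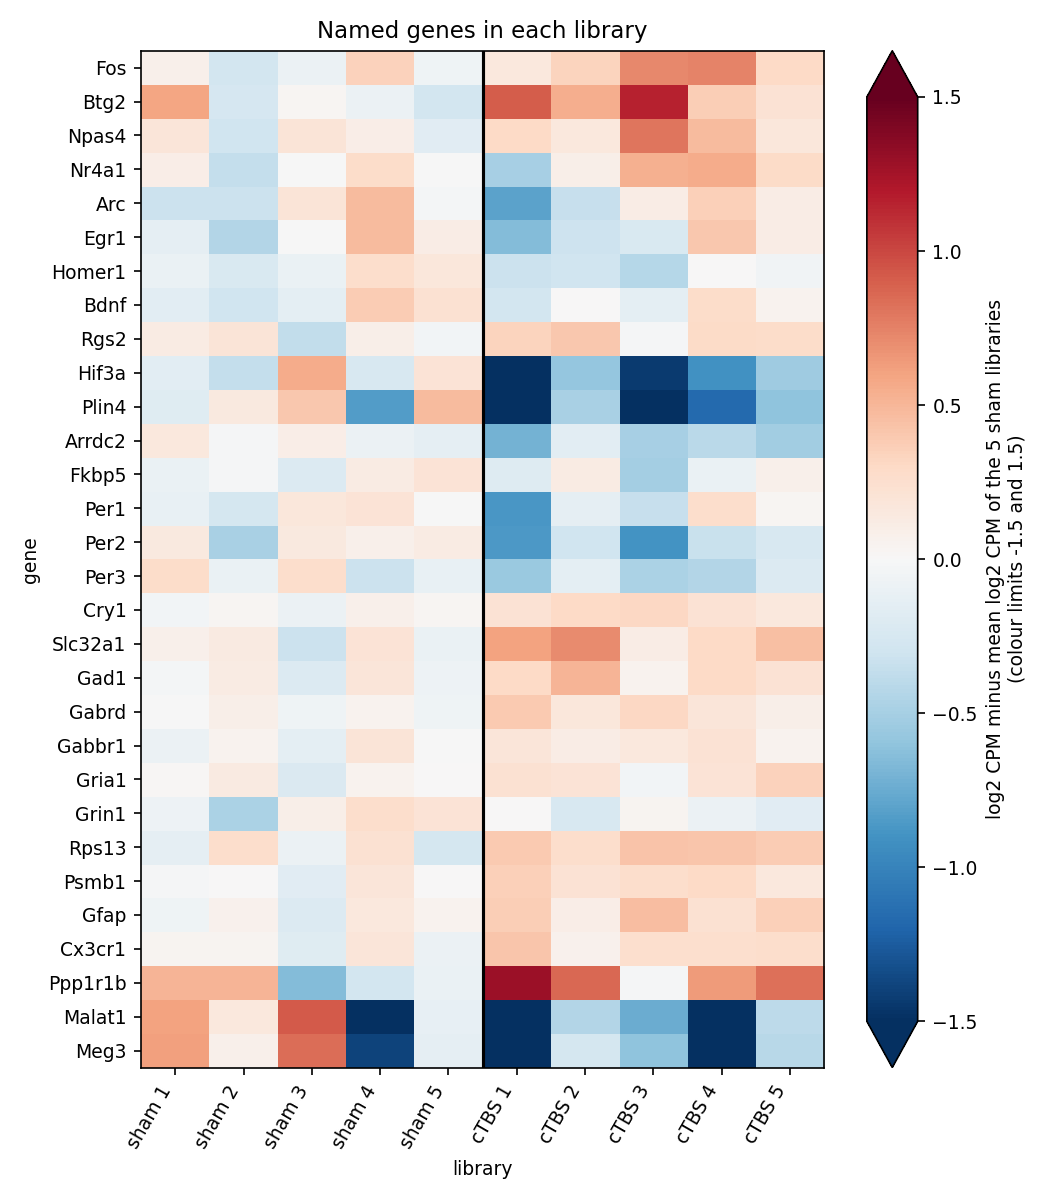
Log2 CPM of 30 named genes in each library minus the mean log2 CPM of the 5 sham libraries (colour limits -1.5 and 1.5), with sham 1 to 5 left and cTBS 1 to 5 right of the line. Malat1 and Meg3 are low in sham 4 as in the cTBS libraries, Ppp1r1b is low in sham 3, and Hif3a, Arrdc2 and Per3 are below 0 in all 5 cTBS libraries.

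Targets of glucocorticoids, hormones of the adrenal stress response, were on the lower side. Of 19 tested genes 15 were below 0 and 6 (31.6%, against 14.2% of all tested genes) were lower at an unadjusted p under 0.05, with 0 higher and a median log2 fold change of -0.17. Hif3a, a hypoxia-inducible factor subunit that responds to glucocorticoids, was at 2.52, 5.22, 2.88, 4.14 and 5.36 CPM in cTBS 1 to 5 and at 6.94, 6.05, 11.5, 6.60 and 8.94 CPM in sham 1 to 5. All cTBS libraries were below all sham libraries, and the log2 fold change was -0.98 ± 0.24 (edgeR adjusted p = 0.18, DESeq2 adjusted p = 0.0312). Arrdc2, an arrestin-like adaptor, was at 4.92, 7.17, 5.69, 6.07 and 5.57 CPM in cTBS 1 to 5 and at 8.91, 7.89, 8.55, 7.56 and 7.28 CPM in sham 1 to 5. It did not overlap either, with a log2 fold change of -0.45 ± 0.11 (DESeq2 adjusted p = 0.0482, not called by edgeR with all 10 libraries). Plin4, a lipid droplet coat protein, overlapped through sham 4 (7.54 CPM) and cTBS 2 and 5, with a log2 fold change of -1.12 ± 0.30. Fkbp5, the co-chaperone most often used as a marker of this response, was at 24.5, 30.5, 19.6, 26.05 and 29.5 CPM in cTBS 1 to 5 and at 26.03, 27.7, 24.2, 30.4 and 32.1 CPM in sham 1 to 5. Its ranges overlapped throughout (-0.11 ± 0.12). The other lower genes were Sult1a1, Zbtb16 and Cebpd. The median of the list was below 0 in each fit, at -0.084 without sham 4 and -0.24 after adjustment for nuclear RNA. Without sham 4 edgeR called 3 of the 19 genes lower and 0 higher, a share near the 15.8% of all genes called lower in that fit.

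In the molecular clock, a feedback loop in which Per and Cry proteins repress their own activators, few genes differed. Of 19 clock genes 1, Cry1, was higher (5.26%, against 8.58% of all tested genes) and 2, Per2 and Per3, were lower (10.5%, against 14.2%) at an unadjusted p under 0.05, so both shares were below those of all genes. Per2 was at 28.5, 41.9, 27.7, 40.99 and 43.6 CPM in cTBS 1 to 5 and at 57.2, 36.8, 56.8, 54.2 and 56.1 CPM in sham 1 to 5. All cTBS libraries were below 4 sham libraries, and sham 2 lay inside the cTBS range, with a log2 fold change of -0.52 ± 0.15 (edgeR adjusted p = 0.18, and 0.0437 without sham 4). Per3 was at 34.6, 46.2, 36.7, 37.7 and 44.3 CPM in cTBS 1 to 5 and at 61.7, 47.5, 61.3, 40.8 and 47.2 CPM in sham 1 to 5. Sham 4 was inside the cTBS range, and the log2 fold change was -0.37 ± 0.12 (-0.12 after adjustment for nuclear RNA). Cry1 was at 18.4, 19.4, 19.6, 18.4 and 17.6 CPM in cTBS 1 to 5 and at 15.4, 16.1, 14.9, 16.7 and 16.2 CPM in sham 1 to 5. The groups did not overlap, with a log2 fold change of 0.24 ± 0.062 (edgeR adjusted p = 0.18). Per1, which also responds to firing and glucocorticoids, was at 150.3 ± 41.5 CPM after cTBS against 169.6 ± 22.9 CPM after sham (-0.17 ± 0.17). The time of day at which each animal was killed was not given in the sources used here, and its part in these values was not tested.

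Glutamate receptor genes, which carry excitatory transmission, were close to sham. Of 20 AMPA receptor subunits and auxiliary proteins 2 were higher and 0 lower at an unadjusted p under 0.05, with a median of 0.057. Gria1, the subunit inserted during potentiation, was at 436, 430.1, 361, 429.9 and 472 CPM in cTBS 1 to 5 and at 378, 408, 319, 386 and 374 CPM in sham 1 to 5. Library cTBS 3 was below 4 of the 5 sham libraries, the other cTBS libraries were above all of them, and the log2 fold change was 0.19 ± 0.087. Nsg1, an endosomal protein that recycles AMPA receptors, was at 168 ± 12.2 CPM after cTBS against 140.0 ± 20.6 CPM after sham (0.26 ± 0.097), and sham 4 (171 CPM) was above 3 cTBS libraries. Without sham 4 its edgeR adjusted p was 0.0146, and that of Cnih2, an AMPA receptor escort protein (0.24 ± 0.11 with all libraries), was 0.0329. Of 9 NMDA receptor genes only Grin2d, a subunit enriched in interneurons, reached an unadjusted p under 0.05, and it was lower (-0.22 ± 0.098). Grin1, the obligatory subunit, was at 330.1 ± 26.4 CPM after cTBS against 355 ± 66.4 CPM after sham (-0.11 ± 0.12). Of 14 kainate and metabotropic receptor genes 2 were lower, the presynaptic receptors Grm7 (-0.19 ± 0.076) and Grm8 (-0.17 ± 0.064). Grm8 was at 22.2 to 24.9 CPM in the cTBS libraries and 26.1 to 28.3 CPM in 4 sham libraries, with sham 4 at 23.7 CPM.

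Genes of GABA signalling, the main inhibitory system of the cortex, were higher on average. Of 24 genes 23 had a log2 fold change above 0 and 6 (25%, against 8.58% of all tested genes) were higher at an unadjusted p under 0.05, with 0 lower and a median of 0.13. Slc32a1, which loads GABA into synaptic vesicles, was at 77.7, 83.2, 55.3, 63.1 and 69.8 CPM in cTBS 1 to 5 and at 53.7, 56.2, 40.99, 59.01 and 47.6 CPM in sham 1 to 5. Sham 2 and 4 lay above cTBS 3, and the log2 fold change was 0.44 ± 0.12 (edgeR adjusted p = 0.18, DESeq2 adjusted p = 0.0482). Gad1, the main GABA-synthesizing enzyme, was at 389.8, 451, 329, 387 and 366 CPM in cTBS 1 to 5 and at 311, 344, 275, 358 and 299.9 CPM in sham 1 to 5. Sham 2 and 4 were again above cTBS 3, with a log2 fold change of 0.28 ± 0.096. Gabrd, the delta subunit of extrasynaptic GABA-A receptors, was at 65.3, 55.9, 61.4, 56.3 and 52.6 CPM in cTBS 1 to 5 and at 49.4, 52.5, 47.3, 51.4 and 47.4 CPM in sham 1 to 5. Its groups did not overlap, although cTBS 5 and sham 2 nearly met, and the log2 fold change was 0.23 ± 0.068 (edgeR adjusted p = 0.18). Gad2 and Abat were also higher at an unadjusted p under 0.05. The GABA-B subunit Gabbr1 was at 899 ± 38.96 CPM after cTBS against 817 ± 77.7 CPM after sham (0.14 ± 0.080).

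The enzymes and the vesicular transporter of GABA are also strongly expressed in the inhibitory neurons of the striatum, so the striatal markers are given beside them. The mean log2 CPM of 18 striatal projection neuron markers was 5.87, 5.66, 4.19, 5.21 and 5.62 in cTBS 1 to 5 and 5.23, 5.53, 3.41, 3.88 and 4.00 in sham 1 to 5. Slc32a1 and Gad1 were lowest in cTBS 3 among cTBS libraries and in sham 3 among sham libraries, the libraries with the lowest striatal level in each group. The part of striatal tissue in the GABA values was not tested. Markers of cortical interneuron classes gave 15 of 20 above 0, with 2 higher at an unadjusted p under 0.05. These were Dlx5 (0.45 ± 0.18), a transcription factor of forebrain inhibitory neurons, and Tac1 (0.87 ± 0.36), which striatal neurons also express. In the GABA list adjusted for nuclear RNA, 2 genes were higher and 1 lower, and the median was 0.033.

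Receptors for modulatory transmitters included some of the larger differences. Of 13 serotonin receptors 3 (23.1%, against 8.58%) were higher, Htr1a, Htr1d and Htr2c, and 0 lower. Htr2c, an excitatory receptor that couples to phospholipase C, was at 46.7, 67.9, 29.7, 43.5 and 49.01 CPM in cTBS 1 to 5 and at 33.5, 48.9, 21.8, 23.5 and 36.9 CPM in sham 1 to 5. Library cTBS 3 lay below 3 sham libraries and sham 2 above 3 cTBS libraries, and the log2 fold change was 0.53 ± 0.23. Htr1d, an inhibitory terminal receptor, gave 0.81 ± 0.32. Both were lowest in cTBS 3 within the cTBS group and highest in sham 2 within the sham group, as were the striatal markers, whose part was not tested. Htr1a differed from this order, with cTBS 3 at 17.9 CPM in the middle of its group. Of 14 acetylcholine receptor genes 2 were higher, the inhibitory muscarinic receptor Chrm4 (0.25 ± 0.092) and Chrna7. Of 9 endocannabinoid genes 2 were higher, Daglb and Abhd12 (0.26 ± 0.088), a lipase. Of 11 tested adrenergic and dopamine receptors 1 was higher, Adra2c, and 0 lower.

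Among ion channel genes the shares that differed without adjustment for nuclear RNA were near or below those of all tested genes. Of 15 calcium channel genes 0 were higher and 2 lower (13.3%, against 14.2%). Cacna1g, a low-threshold T-type channel that supports burst firing, was at 98.9, 105, 113, 105 and 107 CPM in cTBS 1 to 5 and at 129.8, 118, 119, 128 and 137 CPM in sham 1 to 5. No cTBS library reached the lowest sham library, and the log2 fold change was -0.26 ± 0.061 (edgeR adjusted p = 0.18, DESeq2 adjusted p = 0.047, -0.26 after adjustment for nuclear RNA). Cacna1d, an L-type channel that couples activity to transcription, was -0.32 ± 0.096 and overlapped through sham 4. Of 40 potassium channel genes 3 were higher (7.5%, against 8.58%) and 3 lower (7.5%, against 14.2%). Beside Kcnj4, these included Kcnn2, a small-conductance calcium-activated channel that limits firing, at 20.2, 18.6, 24.8, 19.3 and 24.6 CPM in cTBS 1 to 5 and at 27.01, 24.8, 29.8, 25.6 and 29.9 CPM in sham 1 to 5. Here cTBS 3 and 5 met the level of sham 2, and the log2 fold change was -0.35 ± 0.096. Kcnk9, a leak channel, was -0.28 ± 0.084, and Kcnj6 was also lower while Kcnk2 and Kcnip2 were higher. Of 10 sodium channel genes 1 was higher, the auxiliary subunit Scn2b (0.21 ± 0.082). Adjusted for nuclear RNA, 8 of 40 potassium channel genes were lower and 2 higher at an unadjusted p under 0.05. Of 15 calcium channel genes 2 were lower and 0 higher in that fit, and of 10 sodium channel genes 1 was lower and 0 higher. Among all tested genes, 2.15% were lower and 2.48% higher there.

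Of the calmodulin kinase, scaffold, release and actin lists, only the calmodulin kinase list held a larger share of higher genes than all tested genes. Of 20 calmodulin kinase, calmodulin and calcineurin genes 6 (30%, against 8.58%) were higher and 0 lower. Camk2b, a subunit of the kinase central to plasticity, was at 918 ± 61.9 CPM after cTBS against 797 ± 56.2 CPM after sham (0.20 ± 0.078). Camkv, an inactive relative of this kinase, was at 325 ± 21.1 CPM after cTBS against 280.0 ± 27.7 CPM after sham (0.21 ± 0.080). Calm2, 1 of 3 genes for calmodulin, was at 1090.1, 1041, 1078, 1194 and 913 CPM in cTBS 1 to 5 and at 869, 847, 815, 1102 and 869.7 CPM in sham 1 to 5. Sham 4 was above all but 1 of the cTBS libraries while the other sham libraries were below all of them, and the log2 fold change was 0.24 ± 0.10 with and 0.33 without sham 4. The other 3 were the calcineurin genes Ppp3ca, Ppp3cb and Ppp3r1. After adjustment for nuclear RNA the median of the list went from 0.11 to -0.030.

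Of 20 postsynaptic density scaffolds 1 (5%, against 8.58% of all tested genes) was higher, Homer3 (0.40 ± 0.17), a scaffold of metabotropic receptors. Homer3 was at 2.95 ± 0.618 CPM after cTBS against 2.23 ± 0.236 CPM after sham. Of 32 genes for vesicle release 0 were higher and 1 (3.1%, against 14.2% of all tested genes) lower, Unc13b (-0.37 ± 0.11), a vesicle priming factor. Of 26 actin and spine regulators 23 were above 0 and 2 (7.69%, against 8.58%) higher, the small GTPase Cdc42 (0.20 ± 0.083) and Pfn2. Without sham 4, 8 genes of that list were called higher by edgeR, against 8.18% of all genes in that fit. Among them was beta-actin (Actb, 0.30 without and 0.21 ± 0.100 with sham 4). Its level in sham 4 was 2036 CPM, against 1435 to 1778 CPM in the other sham libraries and 1815 to 2066 CPM after cTBS.

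Apart from the classical and atypical cadherins, adhesion and guidance genes gave few differences beyond those already described. Of 30 synaptic adhesion genes 2 were higher and 2 lower. Ptprd, a receptor phosphatase that organizes presynaptic terminals, was at 372 ± 20.9 CPM after cTBS against 431 ± 37.8 CPM after sham (-0.21 ± 0.076), and Slitrk4, which binds such phosphatases, at 106 ± 5.22 CPM after cTBS against 94.6 ± 6.41 CPM after sham (0.17 ± 0.063). Of 11 non-clustered protocadherins 1 was higher, Pcdh20, and 1 lower, Pcdh15. Pcdh15, a component of hair cell tip links that is also expressed in oligodendrocyte precursors, was at 22.6, 24.7, 22.97, 22.7 and 28.4 CPM in cTBS 1 to 5 and at 35.8, 35.4, 36.3, 23.9 and 36.2 CPM in sham 1 to 5. Sham 4 stood alone inside the cTBS range, and the log2 fold change was -0.46 ± 0.11 (-0.56 without sham 4). Of 20 classical and atypical cadherins 4 (20%, against 8.58% of all tested genes) were higher, Celsr1, Cdh8, Cdh9 and Cdh18. Celsr3 (-0.40 ± 0.15), which guides axon tracts, was the 1 lower gene (5%, against 14.2%).

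Of 39 axon guidance genes 2 were higher, Efnb3 and Efnb2, and 2 lower. Efnb3 was at 87.1, 86.7, 75.7, 74.96 and 80.8 CPM in cTBS 1 to 5 and at 66.04, 71.8, 48.98, 59.1 and 63.6 CPM in sham 1 to 5. The lowest cTBS library was above the highest sham library, and the log2 fold change of 0.39 ± 0.093 was 0.40 after adjustment for nuclear RNA. Sema4a, a semaphorin, was at 39.02, 41.1, 40.8, 38.7 and 39.98 CPM in cTBS 1 to 5 and at 48.7, 41.2, 48.1, 46.4 and 46.5 CPM in sham 1 to 5. Both groups nearly met at cTBS 2 and sham 2 but did not overlap (-0.21 ± 0.058). Robo3, a receptor of commissural axons, had a log2 fold change of -1.01 ± 0.29, with 16.5 CPM in sham 4 against 26.2 to 52.6 CPM in the other sham libraries. The netrin receptor Unc5b (0.30 ± 0.082) was the 1 higher gene among 14 latrophilins, teneurins, FLRT proteins and their partners, of which 0 were lower. Of 12 genes of the perineuronal net, the matrix around interneurons, 0 were higher and 1 lower, Has1.

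In signalling pathways, Hunk was accompanied by Sik2, a salt-inducible kinase that restrains CREB coactivators. Sik2 was at 33.8, 37.5, 32.9, 41.2 and 44.7 CPM in cTBS 1 to 5 and at 46.1, 43.05, 50.2, 49.8 and 56.1 CPM in sham 1 to 5. Library cTBS 5 was above sham 2, so the groups overlapped, and the log2 fold change was -0.37 ± 0.096. These 2 kinases of the 21-member AMPK-related list thus differed in opposite directions, with 1 more on each side (Prkaa1 higher and Prkab2 lower). Of 25 genes of the BMP and TGF-beta pathways 20 were above 0 and 2 higher, Smad4 and Id3. Id3, an inhibitor of helix-loop-helix factors and a classical BMP target, was at 12.3, 11.9, 12.95, 11.5 and 13.6 CPM in cTBS 1 to 5 and at 10.9, 8.23, 8.45, 10.98 and 9.80 CPM in sham 1 to 5. The groups did not overlap, with a log2 fold change of 0.36 ± 0.099 (edgeR adjusted p = 0.18). Of 25 Wnt genes 2 were higher (Fzd5 and Sfrp1) and 1 lower (Lef1). Of 22 sterol and ABC transporters 4 (18.2%, against 14.2%) were lower, Osbpl3, Abcc4, Abca7 and Abcc5, and 1 was higher, Abcg1.

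Genes for protein synthesis and turnover were higher as groups. Of 76 tested cytosolic ribosomal protein genes 75 were above 0 and 51 (67.1%, against 8.58% of all tested genes) were higher at an unadjusted p under 0.05, with a median log2 fold change of 0.24. Their mean log2 CPM was 6.22, 5.84, 6.10, 6.08 and 6.03 in cTBS 1 to 5 and 5.70, 5.94, 5.75, 6.01 and 5.74 in sham 1 to 5. Library cTBS 2 lay below sham 2 and 4, so the groups overlapped. Rps13 was at 68.2, 62.3, 69.9, 69.2 and 67.3 CPM in cTBS 1 to 5 and at 47.2, 62.3, 48.6, 60.5 and 43.2 CPM in sham 1 to 5. The lowest cTBS and the highest sham library met at 62.3 CPM, and the log2 fold change was 0.36 ± 0.097 (edgeR adjusted p = 0.18, DESeq2 adjusted p = 0.0486). Rps4x (0.29 ± 0.080) and Rpl3 (0.25 ± 0.083) were similar. These genes have many processed pseudogenes, so part of their reads may be assigned elsewhere. Of 28 genes of mTOR signalling and translation control 7 (25%, against 8.58%) were higher and 0 lower. The higher genes included the elongation factor Eef1a1 (0.28 ± 0.097).

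All 31 proteasome subunits had a log2 fold change above 0, with a median of 0.17. At an unadjusted p under 0.05, 12 (38.7%, against 8.58% of all tested genes) were higher. Psmb1, a subunit of the catalytic core, was at 76.3, 69.4, 71.7, 73.2 and 66.2 CPM in cTBS 1 to 5 and at 58.7, 59.6, 52.96, 67.4 and 59.6 CPM in sham 1 to 5. Sham 4 alone reached into the cTBS range, and the log2 fold change was 0.26 ± 0.069, close to that of Psmb3 (0.28 ± 0.071). Of 30 tested genes of mitochondrial protein synthesis and quality control 6 (20%, against 8.58%) were higher. Clpp and the mitoribosomal protein Mrps7 (0.25 ± 0.076) had the smallest p. Chaperones of the cytosol and the endoplasmic reticulum gave 16 of 26 above 0 and none with an unadjusted p under 0.05 in edgeR, with a median of 0.019.

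Respiratory chain genes are encoded in part in the nucleus and in part in the mitochondria. Of 40 tested nuclear-encoded respiratory chain genes 38 were above 0 and 25 (62.5%, against 8.58% of all tested genes) were higher. The median was 0.23. Atp5g3, a subunit of the ATP synthase ring, was at 96.5, 96.2, 93.7, 96.9 and 83.1 CPM in cTBS 1 to 5 and at 72.8, 78.9, 65.8, 88.5 and 71.6 CPM in sham 1 to 5. Sham 4 lay above cTBS 5 and below the other cTBS libraries, and the log2 fold change was 0.30 ± 0.081. Ndufb8, a complex I subunit, gave 0.27 ± 0.079. Of the 13 respiratory genes encoded in mitochondria 4 were above 0 and none had an unadjusted p under 0.05 in either direction, with a median of -0.091. One of them, mt-Nd4, was at 1962, 1368, 1121, 1094 and 1709 CPM in cTBS 1 to 5 and at 1737, 1572, 2275, 1451 and 1526 CPM in sham 1 to 5. It varied widely within both groups (-0.24 ± 0.18). The difference between both sets was not tested, and after adjustment for nuclear RNA their medians were 0.092 and 0.031.

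Of 22 tested genes of glycolysis and lactate transport 7 (31.8%, against 8.58% of all tested genes) were higher and 0 lower. They included the glycolytic enzyme Gapdh, at 2084 ± 148 CPM after cTBS against 1743 ± 251.8 CPM after sham (0.26 ± 0.10), and Slc16a1, a lactate transporter, at 32.3 ± 1.35 CPM after cTBS against 27.1 ± 3.25 CPM after sham (0.25 ± 0.078). Of 22 cholesterol synthesis genes 20 were above 0 and 4 (18.2%, against 8.58%) higher. Sqle, the squalene epoxidase, did not overlap between groups, with a log2 fold change of 0.20 ± 0.067.

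These groups of messenger RNAs also varied with sham 4. In that library, which had a low nuclear RNA level, the mean log2 CPM was the highest of the sham group for ribosomal, respiratory, proteasome, glycolysis, actin and calmodulin kinase genes. Without sham 4 the medians were 0.30 for ribosomal genes, 0.30 for respiratory genes and 0.22 for proteasome genes. In that fit edgeR called 45 of 76, 27 of 40 and 17 of 31 members higher, against 8.18% of all genes. With all 10 libraries it called 0 in each list. After adjustment for nuclear RNA the medians were 0.12, 0.092 and 0.050, with 4, 3 and 2 members higher at an unadjusted p under 0.05, against 542 (2.48%) higher and 470 (2.15%) lower among all tested genes. Adjusted medians were also nearer 0 for glycolysis (0.15 to 0.038) and cholesterol synthesis (0.12 to 0.065), and below 0 for mTOR and translation control (0.087 to -0.033). The part of the nuclear RNA level in these differences was not tested further.

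**Figure D5:**
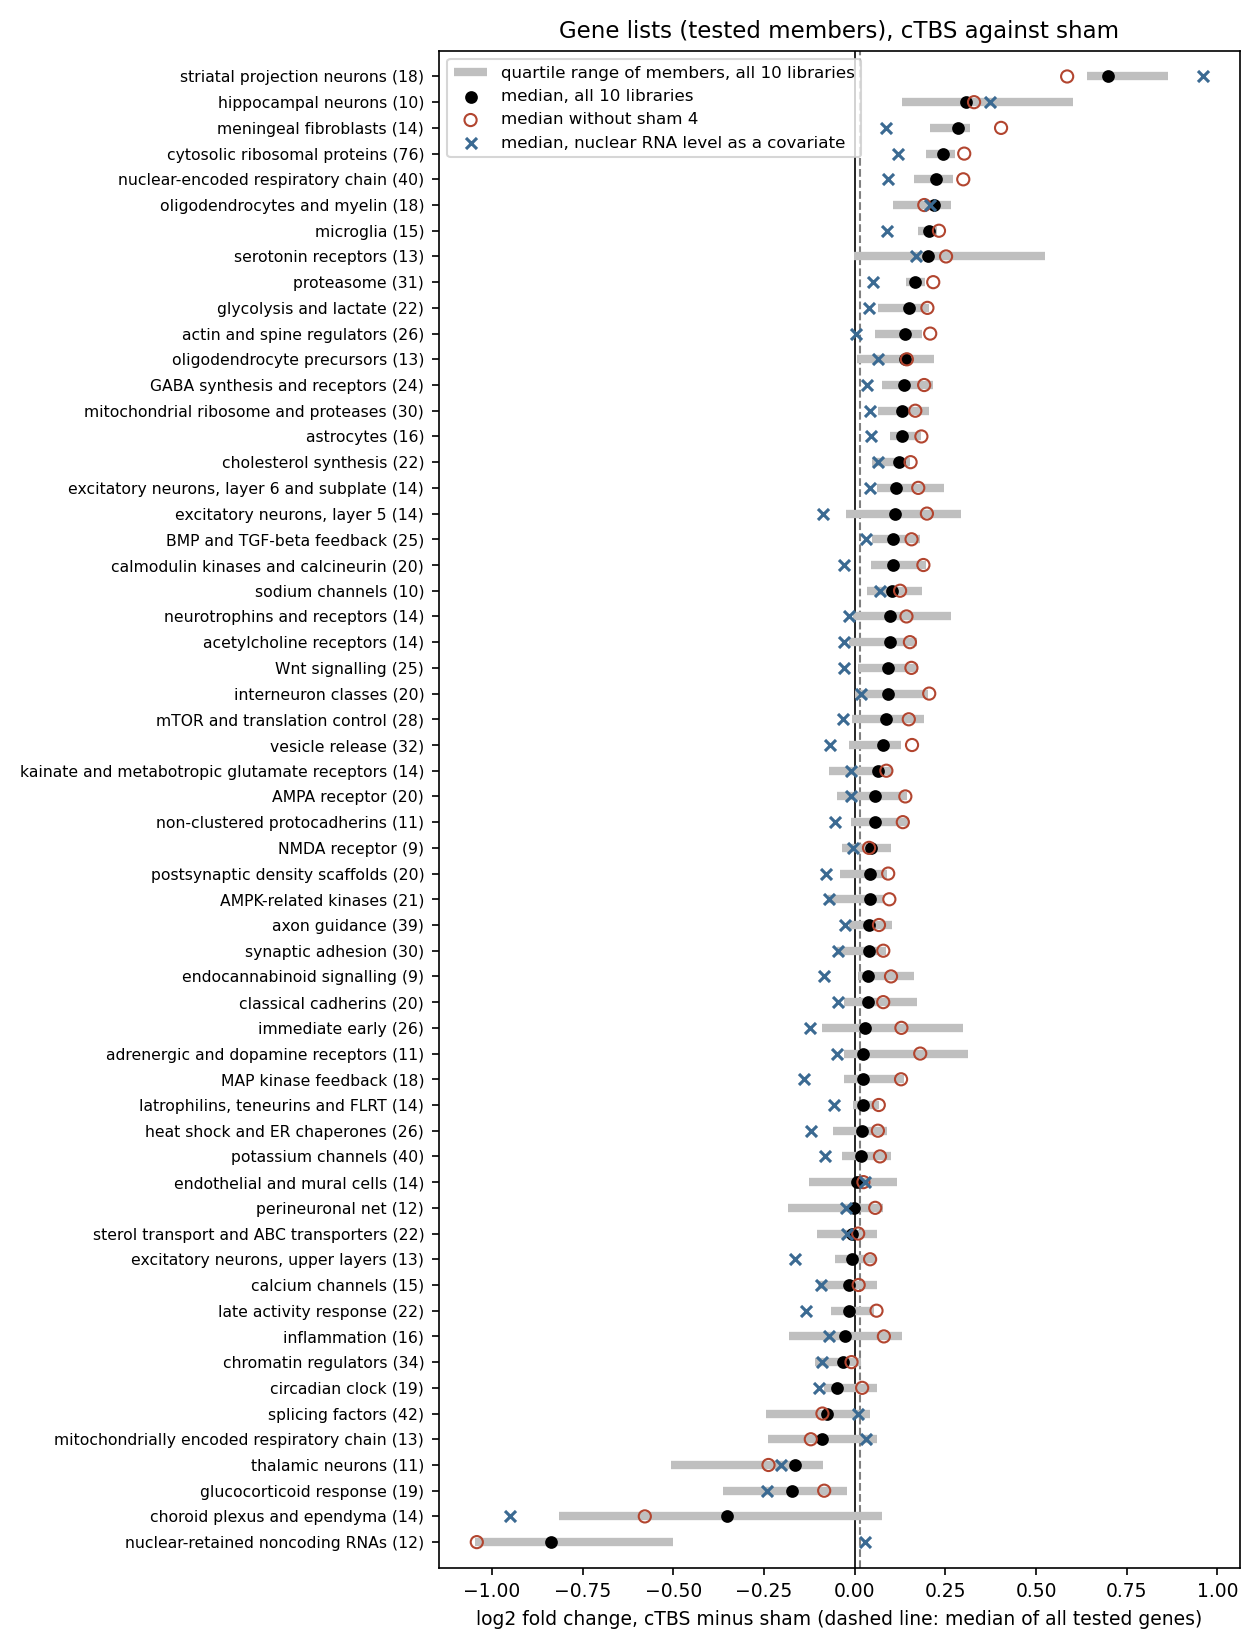
Median log2 fold change of each gene list with at least 9 tested members (black points, grey bars for the quartile range of members) with all 10 libraries, without sham 4 (open circles) and after adjustment for nuclear RNA (crosses); the number of tested members is in brackets and the dashed line is the median of all tested genes. Crosses lie nearer 0 than black points for the ribosomal, respiratory and proteasome lists, and at or beyond them for the striatal and glucocorticoid lists.

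Glial genes were higher to a small extent. All 15 microglia markers were above 0 and 7 (46.7%, against 8.58%) were higher at an unadjusted p under 0.05, with a median of 0.20. Cx3cr1, the fractalkine receptor of microglia, was at 47.2, 36.9, 42.02, 42.3 and 42.4 CPM in cTBS 1 to 5 and at 36.5, 36.5, 31.3, 40.05 and 33.3 CPM in sham 1 to 5. Sham 4 was above cTBS 2 and the other sham libraries were below all cTBS libraries, and the log2 fold change was 0.25 ± 0.080. The complement gene C1qc gave 0.27 ± 0.091. Adjusted for nuclear RNA, the microglia median was 0.088 and 0 members were higher at an unadjusted p under 0.05. Of 16 astrocyte markers 14 were above 0 and 4 (25%, against 8.58%) higher. Gfap, the intermediate filament of reactive astrocytes, was at 107, 88.5, 114, 96.7 and 105 CPM in cTBS 1 to 5 and at 78.8, 86.2, 71.8, 91.8 and 85.3 CPM in sham 1 to 5. Sham 4 exceeded cTBS 2, and the log2 fold change was 0.30 ± 0.083 (edgeR adjusted p = 0.18). Sox9, a glial transcription factor, was at 47.2 ± 3.63 CPM after cTBS against 39.2 ± 2.27 CPM after sham. Its log2 fold change was 0.27 ± 0.068 (DESeq2 adjusted p = 0.0482, not called by edgeR with all 10 libraries). The astrocyte median went from 0.13 to 0.044 with the adjustment, which left 2 members higher.

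Of 18 markers of mature oligodendrocytes 16 were above 0 and 5 (27.8%, against 8.58%) higher, with a median of 0.22. Adjusted for nuclear RNA, the median was 0.21 and 3 members were higher at an unadjusted p under 0.05. Without sham 4 it was 0.19, and edgeR called 1 member higher. Cnp, a myelin-associated phosphodiesterase, was at 263, 216, 239.9, 235 and 248 CPM in cTBS 1 to 5 and at 211, 236, 154, 189.9 and 196 CPM in sham 1 to 5. The sham value of sham 2 was inside the cTBS range, and the log2 fold change was 0.28 ± 0.10. Cldn11, the tight junction protein of myelin, gave 0.27 ± 0.085, and myelin basic protein (Mbp) 0.29 ± 0.17, with 1662 CPM in cTBS 1 and 752 CPM in cTBS 2. Genes of oligodendrocyte precursors (1 of 13 higher, Olig2), of vessels (1 of 14 higher and 1 lower, Itm2a and Ly6c1) and of inflammation (2 of 16 tested higher, Gfap and Vcam1) were near the shares of all tested genes.

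Markers of tissue next to the cortex varied between libraries and in part with the groups. All 18 striatal projection neuron markers were above 0 and 6 (33.3%, against 8.58%) were higher, with a median of 0.70. Their summed level was 906 to 2463 CPM in cTBS libraries and 616 to 1968 CPM in sham libraries. Ppp1r1b, the dopamine-regulated phosphatase inhibitor of striatal neurons, was at 249, 186, 101, 159.5 and 182 CPM in cTBS 1 to 5 and at 146, 146, 65.1, 84.3 and 95.6 CPM in sham 1 to 5. Library cTBS 3 lay below sham 1 and 2, and the other cTBS libraries were above all sham libraries, with a log2 fold change of 0.71 ± 0.25 (edgeR adjusted p = 0.18). Pdyn (0.59 ± 0.21), a precursor of opioid peptides, and Tac1, the substance P precursor, were also higher, and Drd1, the dopamine receptor of direct pathway neurons, gave 0.68 ± 0.39. After adjustment for nuclear RNA the median was 0.96, and without sham 4 it was 0.59 with 0 members called by edgeR.

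All 10 hippocampal markers were above 0. At an unadjusted p under 0.05, 2 (20%, against 8.58% of all tested genes) were higher, C1ql2 and Wfs1. Their mean log2 CPM was 1.61 to 2.70 in cTBS libraries, with cTBS 5 highest, and 1.38 to 1.74 in sham libraries. Of 14 tested markers of meningeal fibroblasts 13 were above 0 and 6 (42.9%, against 8.58%) higher, with a median of 0.29. Ptgds, a prostaglandin synthase of the meninges, was at 426, 447, 423, 527 and 409 CPM in cTBS 1 to 5 and at 319, 323, 329.6, 488 and 356 CPM in sham 1 to 5. Sham 4 was above 4 cTBS libraries and the other sham libraries below all of them, and the log2 fold change was 0.30 ± 0.12 with and 0.43 without sham 4. Adjusted for nuclear RNA, it was 0.068 for Ptgds, and the median of the list was 0.086 with 0 members higher at an unadjusted p under 0.05.

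Choroid plexus markers did not follow the groups, and thalamic markers were dominated by 1 sham library. In sham 2, sham 5 and cTBS 4, Ttr, the carrier protein made by the choroid plexus, stood at 231, 244 and 229.7 CPM, and the other 7 libraries ranged from 1.45 to 10.9 CPM. Of 14 tested choroid plexus and ependymal markers 4 were above 0 and none had an unadjusted p under 0.05 in edgeR, with a median of -0.35. Prkcd, a kinase of thalamic relay neurons, was at 14.9, 6.76, 5.98, 6.21 and 7.01 CPM in cTBS 1 to 5 and at 5.92, 64.4, 5.55, 4.49 and 5.81 CPM in sham 1 to 5. Sham 2 alone was high, as was the mean log2 CPM of the 11 thalamic markers there (4.72, against 3.03 to 3.49 in the other 9 libraries). Red cell RNA was low: 2 of 5 markers passed the expression filter, Alas2, an enzyme of haem synthesis, at 2.47 ± 0.594 CPM after cTBS against 4.31 ± 1.33 CPM after sham (-0.80 ± 0.25), and Hbb-bs.

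Cortical layer markers gave small differences with more members above than below 0 in deep layers. Of 14 layer 5 markers 3 (21.4%, against 8.58% of all tested genes) were higher, Crym, Bcl11b and Htr2c, and of 14 layer 6 and subplate markers 3, Crym, Rprm and Tle4. Crym, a thyroid hormone-binding protein counted in both lists, was at 34.1, 32.8, 27.01, 26.6 and 31.8 CPM in cTBS 1 to 5 and at 24.9, 24.7, 20.1, 24.4 and 25.3 CPM in sham 1 to 5. The groups did not overlap, with a log2 fold change of 0.35 ± 0.089 (DESeq2 adjusted p = 0.043, not called by edgeR with all 10 libraries). Tle4, a corepressor of corticothalamic neurons, did not overlap either (0.17 ± 0.058), and Rprm, a cell cycle regulator, gave 0.35 ± 0.11. Bcl11b, a factor of subcerebral and striatal projection neurons, was at 190.5 ± 36.1 CPM after cTBS against 145 ± 18.7 CPM after sham (0.39 ± 0.13), lowest in cTBS 3 and sham 3, where the striatal markers were lowest too. Of 13 upper-layer markers 1 was higher, Calb1, and the median was -0.008. Once adjusted for nuclear RNA, the layer 5 median turned from 0.11 to -0.088, the layer 6 median went from 0.11 to 0.041, and the upper-layer median was -0.17.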

How the data were processed

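Cortical RNA of 10 mice (5 cTBS, 5 sham) out of 15 was compared. The authors deposited raw counts per Ensembl gene for all libraries, with no normalization, and a log2-like table of variance-stabilized values, used in 1 alternative. The tools named in the submitters' processing notes are fastp, STAR and DESeq2, with build GRCm39 (mm39). Tool versions, read counter, annotation and strand setting are unstated in those notes, so overlapping, antisense and near-identical genes are uncertain. Ensembl identifiers were matched to names, classes and gene spans of an annotation on the earlier build GRCm38, and gene coordinates are therefore left out. A name was found for 52073 of 56748 identifiers, with 97.7% of counts. Of 115 named genes 86 had a promoter window in the RefSeq table.

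The main test was edgeR 4.0.16 (R 4.3.3), a quasi-likelihood F test on the deposited counts of the 10 libraries with TMM scaling, the default filter by group and Benjamini-Hochberg adjustment over 21876 genes at 0.05. Tested genes held 99.8% to 99.9% of each library's counts, and the biological coefficient of variation was 20.4%. CPM was computed over the TMM-scaled total of tested genes. Fold changes are log2 of cTBS over sham, and the SE is the size of the log2 fold change divided by the square root of F. DESeq2 1.42.0 and limma 3.58.1 served as alternatives. The test was tried on simulated counts with known fold changes.

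The 60 gene lists and their members were chosen with earlier results of these data known, so a list is described by counts and its median with no test. Of 1238 list symbols 1233 were matched, and the unmatched ones were Phb1, Atp5pb, Atp5po, Aldoa and Ddit3. Genes were named by rule: the 10 higher and 10 lower genes with the smallest p and a mean CPM of at least 1, without predicted genes and pseudogenes, the 3 members of each list with the smallest p and the member with the highest mean CPM, and a set of plasticity, hormone, nuclear and glial genes. The text gives a part of these, and members named without values only complete a count.

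Library measures were compared by exact permutation tests in scipy 1.17.1. Alternatives were another scaling, tool, filter and set of libraries, each library left out in turn, the libraries with Ttr above 100 CPM left out, the replicate number as a block, and the library number, the nuclear RNA level or the striatal level as a covariate. No 2 libraries of a group agreed within sampling noise.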

Additional observations from a re-analysis of the deposited data

Results flagged for a closer look

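In groups of 5 libraries, a library was singled out where its gap to the nearest other library exceeded 0.71 of the range of its group. Of 366 groups examined 18 were singled out, and chance gives about 5%. In sham 2, Per2 was low at 36.8 CPM (54.2 to 57.2 in the other sham libraries). The thalamic gene Prkcd was high there at 64.4 CPM (4.49 to 5.92), as was the mean log2 CPM of the thalamic list at 4.72 (3.03 to 3.22).

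In sham 3, Dlx5 was low at 3.36 CPM (4.12 to 4.30), Crym at 20.1 CPM (24.4 to 25.3) and Bcl11b at 112.6 CPM (149 to 160.5). The mean log2 CPM of adrenergic and dopamine receptors was low there at 3.02 (3.23 to 3.32). In sham 4, Calm2 was high at 1102 CPM (815 to 869.7), Ptgds at 488 CPM (319 to 356) and the mTOR and translation list at 6.77 (6.54 to 6.599), while Pcdh15 was low at 23.9 CPM (35.4 to 36.3).

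Among cTBS libraries, cTBS 1 was high for Prkcd at 14.9 CPM (5.98 to 7.01) and cTBS 4 for Ttr at 229.7 CPM (2.24 to 10.9). In cTBS 3 the mean log2 CPM was low for AMPA receptor genes at 6.40 (6.51 to 6.54) and for axon guidance genes at 5.77 (5.92 to 5.95). In cTBS 5, Homer3 was high at 4.00 CPM (2.50 to 2.92), Cdc42 low at 212 CPM (249 to 257) and Atp5g3 low at 83.1 CPM (93.7 to 96.9).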

How the results depend on the processing

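The count of genes called by edgeR was 0 with all 10 libraries. It was also 0 with RLE scaling, no filter, a minimum mean CPM of 1, all 15 libraries, each of the 3 covariates, limma-trend, and without the libraries with Ttr above 100 CPM. It was 384 with DESeq2, 6240 with limma-voom and 1410 with a replicate block. Leaving out 1 library at a time gave 0 to 5378 calls, above 0 without sham 4 alone, and 2839 (without sham 3) to 8908 genes with an unadjusted p under 0.05. That count was 1012 after adjustment for nuclear RNA and 1703 without the Ttr-high libraries. The median of all genes was -0.087 over the 24125 genes in DESeq2, against 0.015.

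The replicate numbers carry no stated pairing. Same-numbered deviations from the group means correlated at -0.074, 0.21, 0.13, 0.73 and 0.063 for numbers 1 to 5, and 1 of 5 cTBS libraries correlated best with its own number.

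Of 115 named genes 106 kept their direction under every alternative listed here. The others reversed as follows. With the striatal level as a covariate the log2 fold change was 0.22 for Arc, 0.096 for Egr1, 0.093 for Bdnf, 0.089 for Grin1 and -0.069 for Drd1. Adjusted for nuclear RNA, it was 0.094 for Malat1 and 0.090 for Meg3. For Bdnf it was 0.035 with library number as a covariate and 0.012 in limma-voom. Without the Ttr-high libraries it was 0.71 for Prkcd and 0.48 for Ttr. Leaving out 1 library at a time gave ranges of -0.21 to 0.052 for Arc, -0.27 to 0.023 for Egr1, -0.11 to 0.080 for Bdnf and -1.40 to 0.59 for Prkcd, and -0.40 to 0.11 percentage points for the mitochondrial share. The cause of these changes was not tested.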
